A study of Mus musculus with 6 samples.

Results

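Neutrophil chemotactic receptors are cell surface receptors that steer neutrophils toward sites of infection or injury. The 7 genes described were chosen by name from the 16440 genes of the expression table: the formyl peptide receptors Fpr1 and Fpr2, the anaphylatoxin receptors C3ar1 and C5ar1, the leukotriene B4 receptor Ltb4r1, the platelet-activating factor receptor Ptafr and the chemokine receptor Cxcr2. Their transcripts were compared by RNA-seq between c-Kit+ APL progenitors and normal myeloid progenitors (MPs) of mouse bone marrow (BM), with 3 libraries per group. Acute promyelocytic leukemia (APL) is a leukemia of cells arrested at the promyelocyte stage, driven in most patients by the fusion protein PML/RARα. The comparison addressed how the leukemic progenitors differ in transcript levels from the normal progenitors they resemble.

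The normal MPs were Lin-Sca-1-c-Kit+ cells sorted from the BM of FVB N/J mice. The APL cells came from hMRP8-PML/RARα transgenic mice of the same strain, in which the human MRP8 promoter drives the fusion gene in myeloid cells. They had been marked with GFP by the retroviral vector MigR1, expanded in vivo by transplantation into syngeneic mice and sorted as GFP-labeled c-Kit+ cells. The groups therefore differed in the transgene, the retroviral marking, the passage through a recipient and the sorting gate, and these cannot be told apart here. The labels give no transgene and no vector for the normal MPs and no drug treatment for either group. The study's transplantations used young adult recipients, and the age of the mice that gave the normal MPs and the number of founder leukemias are not given in the sources used here. The series describes the 3 libraries of a group as biological replicates without saying whether they came from separate mice, so the p-values measure the spread between these libraries.

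All 7 receptors belong to the class of G protein-coupled receptors, which span the membrane and signal inside the cell chiefly through Gi proteins, the βγ subunits of which activate phosphoinositide 3-kinase γ and start cell migration. Formyl peptides come from bacteria and damaged mitochondria, C3a and C5a are released when complement is cleaved, leukotriene B4 and platelet-activating factor are lipids made by activated leukocytes, and the CXCR2 ligands are chemokines. Most of these receptors are known to rise late in granulocyte maturation, and promyelocytes normally carry little of them. In mice CXCR2 is also known for guiding the release of neutrophils from the BM.

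The table gives each gene in FPKM, which divides fragments by transcript length and library size, and in scaled fragments, an estimated number of fragments multiplied by a factor of each library. The totals before scaling were 22976881 to 26932324 fragments in the MP libraries and 20608736 to 28382769 in the APL libraries, and a single fragment corresponded to a scaled value of 0.867 to 1.23. Kit, the gene of the sorted surface protein, was present in both groups at 72.4 ± 1.96 FPKM (mean ± SD, n = 3) in normal MPs and 40.4 ± 0.623 in APL, and Ly6a, the Sca-1 gene against which MPs were sorted, was low at 1.36 ± 0.355 and 2.18 ± 0.175 FPKM. Both were called, Kit lower in APL and Ly6a higher (log2 fold change 0.68, limma adjusted p = 0.0434), and Cd34, a progenitor surface marker, was called 79.5-fold lower, at 94.5 ± 15.4 FPKM in MP and 1.15 ± 0.110 in APL. Ly6a lies on chromosome 15, where the median log2 fold change of 563 genes was 0.58 above that of the other genes. The call of Ly6a did not hold in every fit that left out a single library. MP library 3 stood apart from the other MP libraries: its variance against them was about 12 times counting noise, against 3.12 between libraries 1 and 2. Genes were called different at a Benjamini-Hochberg adjusted p under 0.05 by limma together with a fold change over 1.5. Of 14595 genes tested, 46.1% were called, 21.7% as higher in APL and 24.4% as lower, and 70.9% had groups whose libraries did not overlap.

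Of the 7 receptors, 6 passed the filter on low values and 1 of these 6 was called: Ptafr rose in APL. No receptor was called lower by limma. The adjusted p alone was passed by 2 of the 6 (Ptafr higher and Ltb4r1 lower), beside 67% of all genes tested. C3ar1 was at or near 0 in every library of both groups. The log2 fold changes of the 6 receptors tested had a median of 1.35e-05, beside −0.10 over all genes tested. Groups did not overlap for 3 of the 6: APL was above MP for Ptafr and C5ar1, as for 31.1% of all genes, and below MP for Ltb4r1, as for 39.8%. The 1 of 6 called stands beside 46.1% of all genes, and 3 of 6 without overlap beside 70.9%. A set of 6 genes is too small to tell these shares apart, and the set was not tested. Fpr1, C5ar1 and Ptafr rested on at most 103 fragments per library before scaling, where counting error weighs more than in abundant genes. The sorted populations are bulk samples, in which fewer cells of a type and less RNA per cell cannot be told apart.

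**Figure D1:**
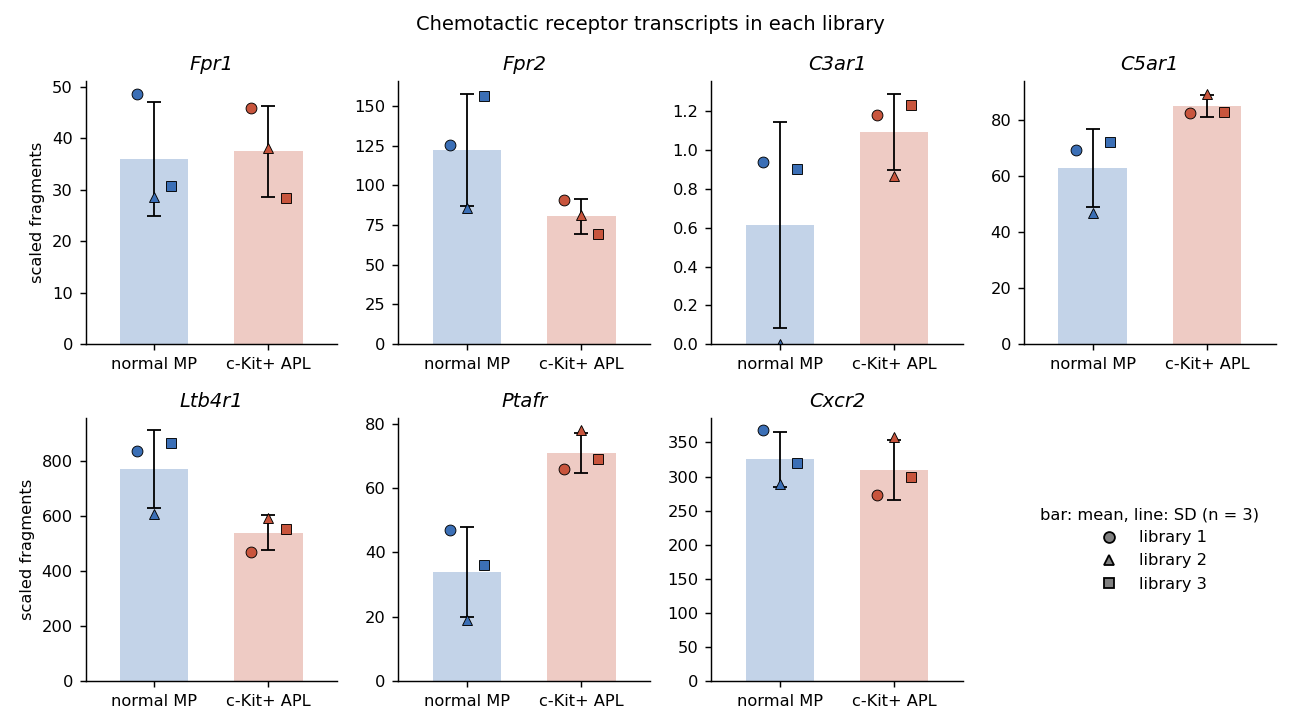
Scaled fragments of the 7 receptors in each library, with a panel and a linear axis from 0 for each gene; symbols mark library numbers, bars the group means and lines the SD (n = 3). The APL libraries of Ptafr sit between 66.0 and 78.0, all above the MP libraries, whereas Fpr1, Fpr2 and Cxcr2 overlap between the groups and C3ar1 stays at or below 1.23 in every library.

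Per kilobase of transcript the receptors spanned a wide range, and their order was much alike in both groups. Ltb4r1 was highest in normal MPs at 31.8 ± 5.43 FPKM and in APL at 22.1 ± 2.60 FPKM, above 83% and 75.6% of the genes tested in the respective group. Fpr2 (4.95 ± 1.45 FPKM) and Cxcr2 (3.90 ± 0.458 FPKM) came next in normal MPs, and their libraries overlapped. Fpr1, C5ar1 and Ptafr followed in normal MPs at 1.33 ± 0.410, 1.22 ± 0.267 and 0.868 ± 0.358 FPKM, each overlapping its neighbour in the order.

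In APL, Cxcr2 (3.70 ± 0.526 FPKM) and Fpr2 (3.15 ± 0.482 FPKM) again overlapped and lay below Ltb4r1. Ptafr moved from the sixth place to the fourth, at 1.81 ± 0.164 FPKM, and its libraries did not overlap those of C5ar1 at 1.61 ± 0.0675 FPKM. C5ar1 overlapped Fpr1 at 1.38 ± 0.348 FPKM. C3ar1 was last in both groups. The summed FPKM of the 7 receptors was 35 to 49.6 in the MP libraries and 31.1 to 36.9 in the APL libraries, of which Ltb4r1 made up the greater part. The 12 markers of maturing neutrophils, summed in the same way, were at 12015 to 18686 FPKM in MP and 46238 to 60145 in APL. S100a8 and S100a9 carried most of this sum, and the other 10 markers summed to 1206 to 2478 FPKM in MP and 1489 to 1688 in APL, with overlap.

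Ptafr and Ltb4r1 were the 2 receptors that passed the adjusted p, in opposite directions, and Fpr2 was the receptor that missed it by least. The 250 bases upstream of the RefSeq start of these 3 genes are shown (GRCm38.p6, strand of the gene, 5′ to 3′), with GGGCGG or its reverse complement CCGCCC, the GC box bound by Sp1-type factors, in capitals.
Ptafr, chr4:132563817-132564066, plus strand: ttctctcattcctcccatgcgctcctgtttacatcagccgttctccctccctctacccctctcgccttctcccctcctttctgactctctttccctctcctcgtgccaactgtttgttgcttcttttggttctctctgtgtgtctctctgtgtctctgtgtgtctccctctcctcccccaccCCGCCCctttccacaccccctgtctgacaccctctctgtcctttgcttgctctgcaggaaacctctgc
Ltb4r1, chr14:55765712-55765961, plus strand: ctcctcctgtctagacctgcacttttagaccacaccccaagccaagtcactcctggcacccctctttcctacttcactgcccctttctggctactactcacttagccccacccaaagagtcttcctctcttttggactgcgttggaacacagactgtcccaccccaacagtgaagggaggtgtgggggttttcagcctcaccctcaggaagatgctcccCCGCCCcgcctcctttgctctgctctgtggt
Fpr2, chr17:17887574-17887823, plus strand: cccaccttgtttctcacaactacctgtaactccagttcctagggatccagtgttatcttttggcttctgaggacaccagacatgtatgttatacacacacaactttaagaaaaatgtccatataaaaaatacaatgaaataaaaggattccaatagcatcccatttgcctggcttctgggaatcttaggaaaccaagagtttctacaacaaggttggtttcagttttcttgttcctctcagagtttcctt
The Ptafr and Ltb4r1 stretches held a GC box 68 and 31 bases upstream and had a G+C content of 56% and 56.8%, and the Fpr2 stretch held none at 38.8%. Over the window from 250 bases before to 50 after the start, GGGCGG or CCGCCC was present in 35.7% of 32851 RefSeq promoters of the mouse. The 2 genes with a GC box in these stretches had fold changes of opposite sign.

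All 7 receptors were found among these promoters. AGGAAGT or ACTTCCT, a core recognised by the myeloid factor PU.1, was in the windows of C5ar1 (190 and 72 bases upstream) and Ltb4r1 (at the start) and in 9.35% of all windows. The C5ar1 start of RefSeq lies inside the locus given in the table, so its upstream stretch is not shown. AGGTCA or TGACCT, a repeat unit of the response elements of retinoic acid receptors, was in the window of Cxcr2 (208 bases upstream and across the start) and in 16.3% of all. TTGCNNAA or TTNNGCAA, a C/EBP type core, was in none of the 7 windows and in 10.8% of all. The 4 motifs were searched on both strands, and their matches in the receptor windows did not overlap each other. These matches describe the letters of the windows.

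Neither formyl peptide receptor passed the test, and both overlapped between the groups. Fpr1 (gene ID 14293, chr17:17876471-17883939, coordinates on GRCm38) encodes the high affinity receptor for bacterial formyl peptides. In scaled fragments its values were 48.7, 28.6 and 30.7 for normal MPs and 45.9, 38.1 and 28.4 for APL, in the order of library numbers used throughout. The highest value of either group was MP library 1 and the lowest was APL library 3, and the groups overlapped. The group means were 36.0 ± 11.1 and 37.5 ± 8.80, a ratio of APL over MP of 1.05 (95% interval 0.669 to 1.65, limma adjusted p = 0.839; two-sided exact permutation p = 1). The interval still holds a 1.5-fold rise. Fpr1 rested on 23 to 52 fragments per library before scaling, and the sign of its fold change turned when libraries were scaled to equal totals, with voom weights and without MP library 2, MP library 3 or APL library 1.

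Fpr2 (gene ID 14289, chr17:17887824-17893952), whose product binds formyl peptides, annexin A1 and other peptide and lipid ligands, had 125, 85.7 and 156 scaled fragments in the MP libraries and 90.7, 81.5 and 69.1 in the APL libraries. MP libraries 1 and 3 were above, but MP library 2 lay among the APL values. The mean was 122 ± 35.3 in MP and 80.4 ± 10.8 in APL, a log2 fold change of −0.57 ± 0.24 (SE) that was not called (limma adjusted p = 0.0608; exact permutation p = 0.2). Without MP library 2 the log2 fold change was −0.80 and Fpr2 was called lower (limma adjusted p = 0.00799). It was also called lower with equal totals (−0.70), voom weights (−0.71) and FPKM with a pseudocount of 0.1 (−0.60), while without MP library 3 it was at −0.37 (limma adjusted p = 0.154). Fpr2 has close paralogs in the mouse genome that were not analysed here, and how fragments shared with them were assigned is not given in the sources used here.

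Fpr1 and Fpr2 lie next to each other on chromosome 17 in opposite orientation, with 3885 bases between their starts. Their ligand genes were abundant: Anxa1, which encodes annexin A1, was at 7945, 5334 and 8373 scaled fragments in MP and 7377, 7405 and 7024 in APL. The adjusted p of Anxa1 was 0.844 by limma at a log2 fold change of 0.04, with a sign that turned under quantile normalization, equal total scaling and voom weights. Camp, the precursor of the cathelicidin peptide CRAMP, which can act on FPR2, had a log2 fold change of −0.27 (limma adjusted p = 0.395). Without MP library 2 Camp was called lower at −0.63.

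Of the complement receptors, C5ar1 was detected at a level at which groups could be compared and C3ar1 was not. C3ar1 (gene ID 12267, chr6:122847140-122856157), the receptor for C3a, held 1, 0 and 1 fragments before scaling in the MP libraries and 1, 1 and 1 in the APL libraries. That is 2 fragments in all in MP (exact Poisson 95% interval 0.242 to 7.22) and 3 in all in APL (0.619 to 8.77), intervals which cover counting error only. Both groups were at or under 3 fragments per library, so no fold is given and a difference was not detectable at this depth.

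C5ar1 (gene ID 12273, chr7:16246743-16259540), the receptor for C5a and one of the strongest drivers of neutrophil chemotaxis, had 69.3, 46.7 and 72.1 scaled fragments in the MP libraries and 82.5, 89.3 and 82.7 in the APL libraries. Each APL library lay above each MP library, and MP library 2 was the lowest of all. The ratio of APL over MP was 1.37 (95% interval 0.983 to 1.91), with means of 62.7 ± 14.0 and 84.8 ± 3.87, and was not called (limma adjusted p = 0.0846). The exact permutation p was 0.1, the smallest that 3 against 3 libraries can give. With quantile normalization C5ar1 was called higher at a log2 fold change of 0.81 (limma adjusted p = 0.0058), and without MP library 2 its log2 fold change was 0.26.

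Gpr77, the table's name for the second C5a receptor (C5ar2), lies 2589 bases from C5ar1 on chromosome 7. It does not couple to G proteins as C5ar1 does and is known as a recycling or decoy receptor. Gpr77 had 78.0, 78.9 and 68.4 scaled fragments in MP and 54.3, 62.4 and 51.4 in APL, and all APL libraries were below all MP libraries. At a log2 fold change of −0.42 it was not called (limma adjusted p = 0.0671). The neighbouring receptors C5ar1 and Gpr77 thus had fold changes of opposite sign, neither of which passed the test.

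The complement genes C3 and Cfb rose. C3, from which C3a is cleaved, had 9091, 6152 and 6342 scaled fragments in MP and 32486, 35870.1 and 33029 in APL, a 4.77-fold rise without overlap (limma adjusted p = 1.67e-06). Cfb, a protease component of the alternative pathway that cleaves C3, had 6.56, 5.71 and 1.8 scaled fragments in MP and 37.7, 36.4 and 30.9 in APL, a log2 fold change of 2.78 ± 0.40 (limma adjusted p = 2.63e-04). Hc, which encodes complement C5, had 0, 1 and 0 fragments in MP and 2, 4 and 3 in APL before scaling. The APL libraries were themselves at or near the floor of 3 fragments, so no fold is given. Hc passed the filter on low values through the APL libraries alone.

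Ltb4r1 (gene ID 16995, chr14:55765962-55768492) encodes BLT1, the high affinity receptor for leukotriene B4. It had 834, 606 and 865 scaled fragments in the MP libraries and 468, 591 and 553 in the APL libraries. All APL libraries lay below all MP libraries, with MP library 2 (606) just above APL library 2 (591). The mean was 769 ± 141 in MP and 537 ± 63.2 in APL, a log2 fold change of −0.50 ± 0.15 (SE). Its adjusted p by limma was 0.0151, and the 1.42-fold difference (ratio 0.705, 95% interval 0.556 to 0.893) was under the 1.5-fold threshold. Of all genes tested, 67% passed the adjusted p alone. With equal total scaling, with voom weights and without MP library 2 the fold passed 1.5 and Ltb4r1 was called lower, at log2 fold changes of −0.64, −0.64 and −0.67. Without APL library 1, the lowest, its log2 fold change was −0.41 and its adjusted p by limma was 0.0545.

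Ltb4r2, the low affinity leukotriene B4 receptor 2733 bases away, had 6, 4 and 5 fragments in MP and 0, 3 and 4 in APL before scaling. The groups overlapped and it was not called (limma adjusted p = 0.177). Per kilobase it was far below Ltb4r1 in both groups, at 0.214 ± 0.0479 FPKM in MP and 0.116 ± 0.114 in APL.

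Of the enzymes that make leukotriene B4, 3 of 4 rose, beside 21.7% of all genes called higher. Alox5ap, which presents arachidonic acid to 5-lipoxygenase, had 2091, 1866 and 2492 scaled fragments in MP and 4059, 4591 and 4288 in APL, a 2.02-fold rise (limma adjusted p = 3.81e-05). Alox5, the 5-lipoxygenase itself, had 459, 305 and 497 in MP and 722, 789 and 738 in APL and rose 1.82-fold (limma adjusted p = 0.00173). Lta4h, the hydrolase of the last step, had 12441, 10037 and 10804 in MP and 18658, 19039 and 20708 in APL and rose 1.76-fold (limma adjusted p = 1.03e-04). All 3 were higher in every APL library than in any MP library, as were 31.1% of all genes. Pla2g4a, the phospholipase that releases arachidonic acid, was at a log2 fold change of −0.14 and was not called (limma adjusted p = 0.167).

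Ptafr (gene ID 19204, chr4:132564067-132580866), the receptor for platelet-activating factor on neutrophils, monocytes and platelets, was the one receptor called. It had 46.8, 19.0 and 36.1 scaled fragments in the MP libraries and 66.0, 78.0 and 69.1 in the APL libraries. All APL libraries lay above all MP libraries, and MP library 2 was far below the other MP libraries. The mean rose from 34.0 ± 14.0 in MP to 71.0 ± 6.25 in APL, 2.19-fold (95% interval 1.33 to 3.60, limma adjusted p = 0.0114; exact permutation p = 0.1). Among all genes tested, 70.4% had a smaller absolute log2 fold change. Ptafr kept this call in all 17 alternative fits, at log2 fold changes between 0.61 and 1.59. Without MP library 2 its log2 fold change was 0.77, that is over 1.5-fold (limma adjusted p = 0.0165), and without MP library 3, which stood apart, it was 1.21 (limma adjusted p = 0.00905).

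The genes that make and break down platelet-activating factor also differed. Lpcat2, the acyltransferase that makes it in activated leukocytes, had 237, 163 and 221 scaled fragments in MP and 961, 1078 and 959 in APL, a 4.87-fold rise (limma adjusted p = 1.42e-06). It lies on chromosome 8, where the median log2 fold change of 778 genes was 0.61 above that of the other genes. Lpcat1, a related acyltransferase, fell from 706, 652 and 683 in MP to 375, 378 and 411 in APL (limma adjusted p = 4.34e-05). Pla2g7, the acetylhydrolase that inactivates platelet-activating factor, had 26.2, 14.3 and 15.3 in MP and 71.9, 106 and 80.2 in APL and rose 4.53-fold (limma adjusted p = 1.44e-04). In this axis the receptor, a synthesis enzyme and the inactivating enzyme were each higher in APL without overlap, as were 31.1% of all genes. Lpcat1 was lower without overlap, as were 39.8% of all genes, and Pla2g4a, drawn in the same axis, overlapped between the groups.

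**Figure D2:**
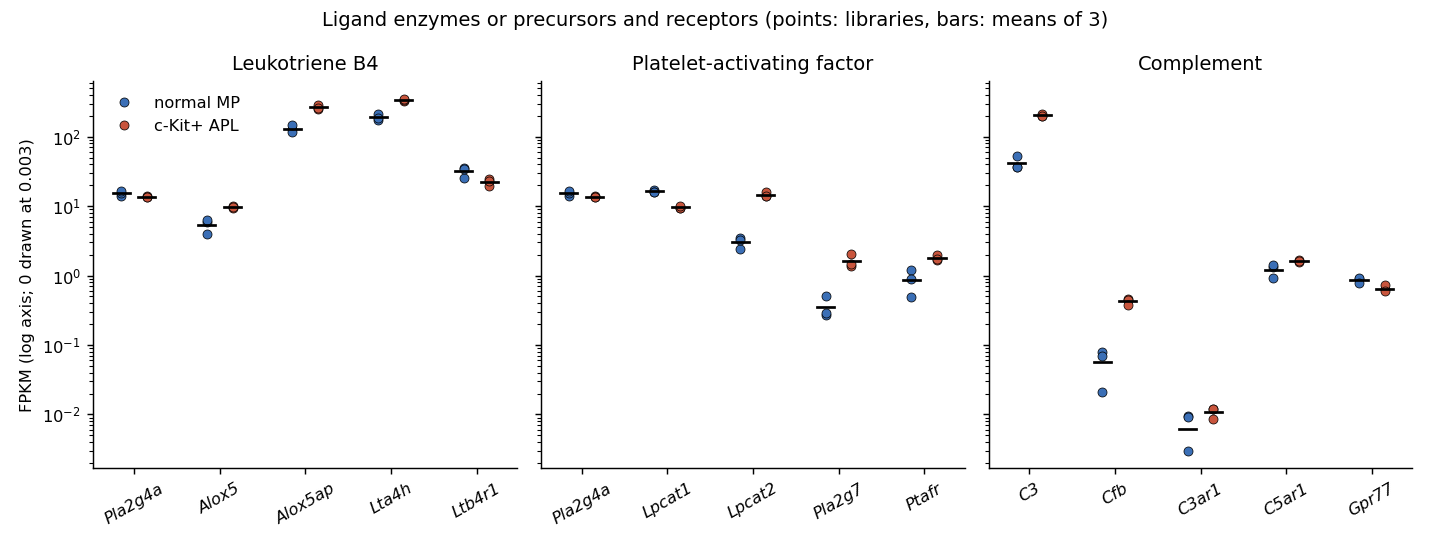
FPKM on a log axis of ligand enzymes or precursors and of their receptors in the leukotriene B4, platelet-activating factor and complement axes; points are libraries, horizontal bars the means of 3, and values of 0 are drawn at 0.003. Alox5, Alox5ap and Lta4h lie higher in APL while Ltb4r1 lies lower. Lpcat2, Pla2g7 and Ptafr lie higher while Lpcat1 lies lower, and C3ar1 stays near the foot of the axis under a C3 that rose 4.77-fold.

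Cxcr2 (gene ID 12765, chr1:74153994-74161246), the receptor for the neutrophil chemokines such as CXCL1 and CXCL2, did not pass the test. It had 368, 289 and 319 scaled fragments in the MP libraries and 273, 358 and 299 in the APL libraries. MP library 1 and APL library 2 were the highest and the groups overlapped over most of their range. The ratio of APL over MP was 0.952 (95% interval 0.762 to 1.19, limma adjusted p = 0.673; exact permutation p = 0.7), and the interval leaves out a 1.5-fold change in either direction. Cxcr2 was the one receptor whose values were not whole multiples of a fragment. Cxcr1, its paralog 30540 bases away on chromosome 1, reached at most 3 fragments in MP and was at 0 in every APL library; it was not tested, and no fold is given.

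The chemokine ligands of Cxcr2 were at few fragments. Cxcl1, Cxcl3 and Cxcl15 were at or below 2 fragments in every library and were not tested. Cxcl2 had 14.0, 1.90 and 18.9 scaled fragments in MP and 18.9, 7.80 and 23.4 in APL, with overlap (limma adjusted p = 0.367). Ppbp, a platelet chemokine, also overlapped (limma adjusted p = 0.510). Cxcl5 was called lower in APL, from 3, 5 and 5 fragments to 1, 1 and 0 before scaling. With each APL library set at 3 fragments it was at least 1.23-fold lower, counting error left out. It passed the filter through the MP libraries alone, and the call was lost without MP library 2 and with quantile normalization.

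Over the whole list of 18 ligand genes and ligand enzymes, 15 were tested, 8 were called higher and 2 lower, with a median log2 fold change of 0.82, or 0.76 with genes at or under 3 fragments in a group set at their bound. The genes called higher were C3, Cfb, Hc, Alox5, Alox5ap, Lta4h, Lpcat2 and Pla2g7, and the genes called lower were Lpcat1 and Cxcl5. The 8 of 15 stand beside 21.7% of all genes tested called higher, and Hc and Cxcl5 were at or under 3 fragments in a whole group. None of the called genes is a ligand of Cxcr2 other than Cxcl5.

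Receptors related to the 7 by sequence or ligand were called in both directions. Of 15 listed, 9 were in the table and 8 were tested, with 2 called higher (21.7% of all genes) and 3 lower (24.4% of all genes). Ccr1, a receptor for chemokines such as CCL3 and CCL5 on neutrophils and monocytes, had 92.7, 65.7 and 58.6 scaled fragments in MP and 495, 509.7 and 453 in APL, a 6.76-fold rise without overlap (limma adjusted p = 1.67e-06). Ccrl2, a receptor that binds chemerin without signalling, had 99.3, 50.5 and 101 in MP and 217, 201 and 260.4 in APL and rose 2.80-fold (limma adjusted p = 0.00105).

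The receptors called lower were at the floor in APL. Cysltr1, a receptor for cysteinyl leukotrienes, fell from 21.5, 19.0 and 19.8 scaled fragments in MP to 0, 0.867 and 1.23 in APL, at least 6.14-fold lower when each APL library is set at 3 fragments. Cysltr2, the second such receptor, fell from 20.6, 34.3 and 32.5 to 0, 0.867 and 0, at least 8.88-fold lower on the same floor. Cmklr1, the signalling receptor for chemerin, had 5, 4 and 4 fragments in MP and 0, 1 and 0 in APL before scaling. On the same floor it was at least 1.23-fold lower, counting error left out. All 3 passed the filter on low values through the MP libraries, where they are high, so no p-value is given for them. Gpr44, a prostaglandin D2 receptor, was not called (limma adjusted p = 0.255). The median log2 fold change of the 8 was −0.92, or −0.36 with genes at the floor set at their bound. Fpr3, Fpr-rs3, Fpr-rs4, Fpr-rs6, Fpr-rs7 and Gpr33 were not analysed here.

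**Figure D3:**
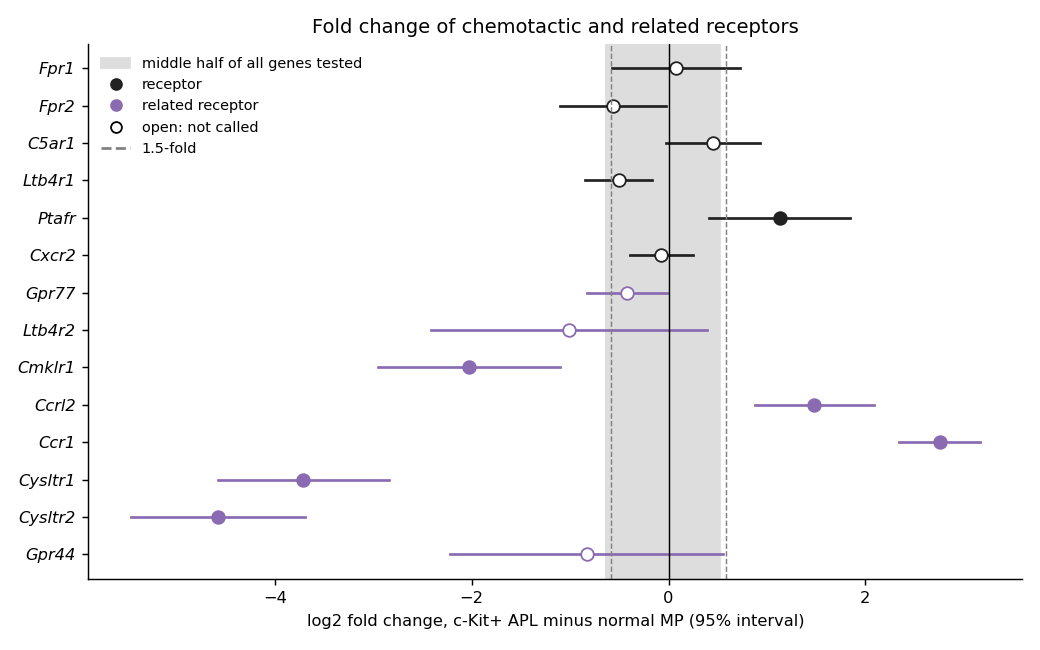
Log2 fold change (APL minus MP) of the 6 receptors tested and of 8 related receptors, with 95% intervals; filled points were called, dashed lines mark 1.5-fold and the grey band spans the quartiles of all genes tested (−0.63 to 0.53). Ptafr alone among the 6 lies outside the band and is filled, while Ccr1, Ccrl2, Cysltr1, Cysltr2 and Cmklr1 lie far outside it; the 2 Cysltr genes and Cmklr1 were at or under 3 fragments in APL, so their plotted points depend on the pseudocount.

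Downstream of the receptors, the 20 genes of Gi and phosphoinositide 3-kinase γ signalling were all tested, and 4 were called higher (Gnai3, Pik3cg, Pik3r6 and Rac2) and 3 lower (Gng2, Gna15 and Prex1), beside 21.7% and 24.4% of all genes. Gng2, a γ subunit of the heterotrimeric G proteins, fell from 984, 937 and 1044 scaled fragments in MP to 212, 213 and 193 in APL (limma adjusted p = 1.28e-07). Prex1, the Rac exchange factor switched on by Gβγ and the lipid PIP3, fell from 1965, 1903 and 2002 to 614, 652 and 609.7 (limma adjusted p = 1.35e-07). Pik3cg, the catalytic subunit of the kinase, rose from 2233, 2206 and 2219 to 4827, 4920.5 and 4886 (limma adjusted p = 4.43e-07). The most abundant gene per kilobase, Gnai2, which encodes the main Gi subunit of leukocytes, was at 193 ± 23.2 FPKM in MP and 237 ± 14.2 in APL and was under the fold threshold (log2 fold change 0.29, limma adjusted p = 0.0440). The median log2 fold change of the list was 0.33. Rac2 lies on chromosome 15, where the median of 563 genes was 0.58 above that of the other genes.

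Genes that switch such receptors off were called in both directions. Of 12 listed, 11 were tested, 3 were called higher (Grk5, Arrb2 and Rgs2) and 3 lower (Adrbk2, Arrb1 and Rgs1), near the 46.1% of all genes called, with a median log2 fold change of 0.21. Rgs1, a GTPase activator that shortens Gi signals, fell from 742, 358 and 809.9 scaled fragments in MP to 13, 5.20 and 16 in APL, 52.7-fold (limma adjusted p = 3.78e-06). Adrbk2, the table's name for the receptor kinase GRK3, fell from 1557, 1310.1 and 1188 to 35.3, 38.1 and 33.3, 36.8-fold (limma adjusted p = 1.41e-08). Rgs2, a related activator acting mainly on Gq, rose from 1669, 1094 and 1622 to 6049, 5433 and 6399 (limma adjusted p = 4.05e-06). Adrbk1 (GRK2), the kinase highest in both groups, was not called at a log2 fold change of 0.21 (limma adjusted p = 0.0520). The arrestins, which uncouple phosphorylated receptors, were opposed: Arrb2 was 2.18-fold higher and Arrb1 1.83-fold lower in APL.

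Of the 11 genes of the adhesion response that follows receptor activation, 4 were called higher, among them Itgam, Itgal and Lyn, and 2 lower, among them Fermt3, beside 21.7% and 24.4% of all genes, with a median log2 fold change of 0.34. The integrin gene Itgb2 went the other way from Itgam and Itgal, without overlap. At a log2 fold change of −0.52 (limma adjusted p = 0.0128) Itgb2 was under the fold threshold and not called. Lyn, a Src family kinase, rose from 1553, 1590.0 and 1725 scaled fragments in MP to 3439, 3736 and 3679 in APL, 2.23-fold (limma adjusted p = 1.20e-06). Fermt3, the kindlin that activates leukocyte integrins and the most abundant gene of the list in MP, was 1.52-fold lower (limma adjusted p = 0.00289). Its fold was under the threshold without MP library 3 (log2 fold change −0.47), without APL library 1 (−0.51), with median ratio scaling (−0.54) and with FPKM (−0.57).

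Of the transcription factors of granulocyte maturation, most rose. Of 6 listed, 5 were tested and 4 were called higher (Cebpa, Cebpb, Cebpd and Gfi1), beside 21.7% of all genes, with a median log2 fold change of 1.65. Cebpd rose 6.87-fold, from 673, 509 and 581 scaled fragments in MP to 3603, 4603 and 3915 in APL (limma adjusted p = 1.69e-07). Cebpe, which is needed for late granulocyte differentiation, had 1145, 875 and 1245 in MP and 1045, 1436 and 1360.1 in APL, with overlap (limma adjusted p = 0.208). Spi1 was not analysed here. Over these 6 lists, 38 of 70 genes tested were called (25 higher and 13 lower), that is 54.3%, beside 46.1% of all genes.

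The markers of early granulocytes were abundant in both groups: the 5 promyelocyte markers summed to 8770 to 9920 FPKM in the MP libraries and 24186 to 28629 in the APL libraries. The counts of markers called stand beside 21.7% of all genes called higher and 24.4% called lower. Of 5 promyelocyte markers, 4 were called higher in APL, among them Elane, the neutrophil elastase gene, at 3.44-fold, and Mpo, the myeloperoxidase gene, at 2.32-fold. With quantile normalization Mpo was no longer called (log2 fold change 0.24, limma adjusted p = 0.343). Of 12 markers of maturing neutrophils, 6 were called higher and 2 lower, and Camp, Lcn2, Mmp8 and Mmp9 were not called. S100a8 rose 4.50-fold, Cd177 10.2-fold and Itgam 2.01-fold, and the genes called lower, Ltf and Ngp, fell 2.68-fold and 2.74-fold. Of 8 monocyte markers, 4 were called higher, with Ly6c2 (also on chromosome 15) at 12.2-fold, and 3 lower, with Csf1r and Cx3cr1 at 3.50-fold and 7.07-fold.

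Markers of other lineages differed between the groups as well, beside the same shares of all genes. Of 6 eosinophil markers 1 was called higher and 4 lower, and their summed FPKM went from 166 to 287 in the MP libraries down to 56.8 to 78.4 in the APL libraries. Of 6 mast cell and basophil markers 1 was called higher and 4 lower (summed FPKM 49.8 to 69.4 and 42.1 to 49.96), and of 6 macrophage markers 2 higher and 2 lower (8.18 to 10.5 and 21.7 to 22.2). The 8 monocyte markers summed to 847 to 1014 FPKM in MP and 10883 to 11204 in APL. All 5 megakaryocyte markers, all 4 erythroid markers tested, 2 of 3 B cell markers tested and 1 of 2 T and NK cell markers tested were called lower. The megakaryocyte markers summed to 67.5 to 103 FPKM in MP and 1.496 to 2.36 in APL, the erythroid markers to 1383 to 1899 and 4.62 to 7.83, and the B cell markers to 12.2 to 14.7 and 0.305 to 0.638. The T and NK cell markers summed to 1.99 to 2.67 and 0.0542 to 0.125, with Cd3e at 0 in every MP library and Cd3g in every APL library. Ptafr, Cysltr1, Cysltr2 and Fpr2 are also known from eosinophils, mast cells, monocytes or platelets. Both gates kept c-Kit+ cells, and that of the normal MPs also removed lineage-positive cells. The part of eosinophils, mast cells, monocytes or platelets in the receptor values was not tested.

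**Figure D4:**
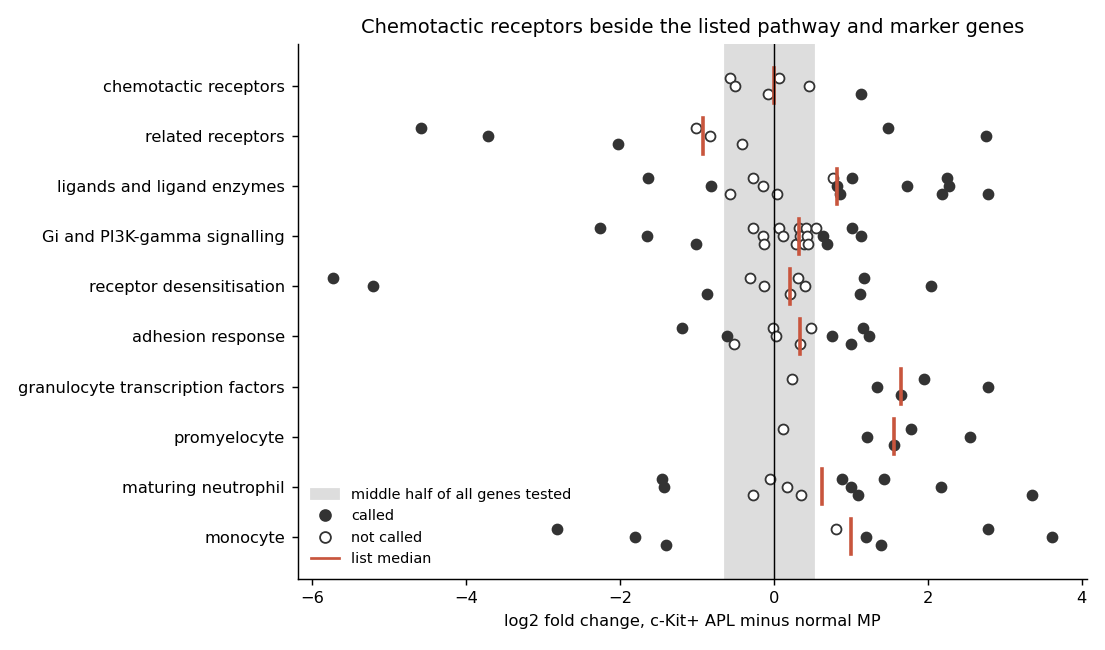
Log2 fold change (APL minus MP) of each tested gene of the chemotactic receptors, of 6 pathway lists and of 3 marker lists; filled points were called, red lines are list medians and the grey band spans the quartiles of all genes tested (−0.63 to 0.53). The receptors gather around 0 with Ptafr as the filled point, while the medians of the granulocyte transcription factors (1.65) and the promyelocyte markers (1.57) lie to the right of the band.

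Within normal MPs, MP library 2 was the lowest of the 3 for all 6 receptors with over 3 fragments per library. Its ratio to the mean of MP libraries 1 and 3 was 0.459 for Ptafr, 0.609 for Fpr2, 0.660 for C5ar1, 0.714 for Ltb4r1, 0.720 for Fpr1 and 0.840 for Cxcr2, with a median of 0.687. MP library 2 was the lowest also for 11 of 12 markers of maturing neutrophils (median ratio 0.562, range 0.467 to 0.966). Of other lineages, 6 of 8 monocyte markers (median ratio 0.840), 5 of 6 eosinophil markers (0.775) and 2 of 5 macrophage markers (0.675) were lowest in MP library 2. It was the lowest for 5 of 5 promyelocyte markers, at ratios close to 1 (0.880 to 0.928), and for 37.6% of 13053 genes with over 3 fragments in each MP library (median ratio 0.951). The summed FPKM of the maturing neutrophil markers was 18686, 12015 and 15618 in MP libraries 1 to 3. The part of these markers' cells in the receptor values was not tested.

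**Figure D5:**
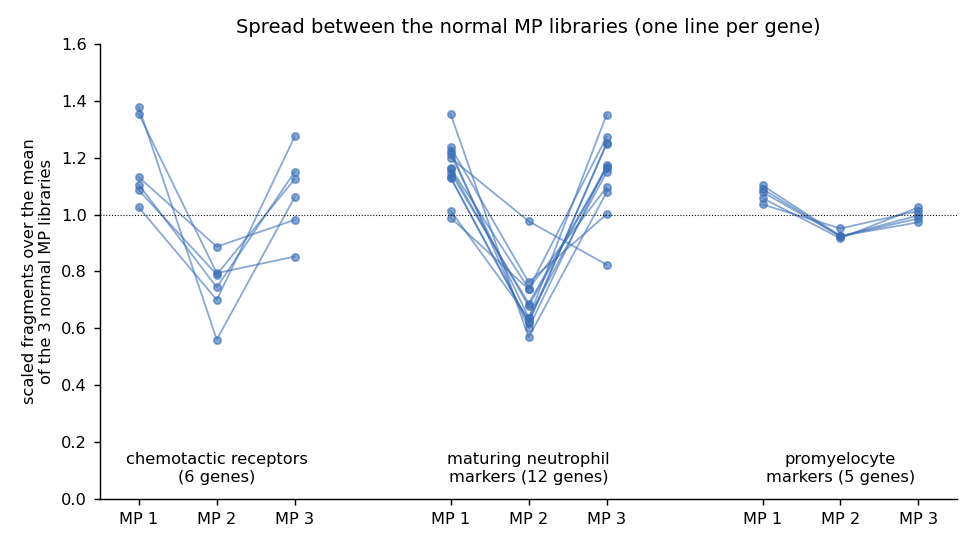
Scaled fragments in each MP library over the mean of the 3 MP libraries, a line per gene, for the 6 receptors, 12 maturing neutrophil markers and 5 promyelocyte markers. The lines of the receptors and of the maturing neutrophil markers dip at MP library 2, whereas those of the promyelocyte markers stay near 1.

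Leaving out MP library 2 changed the calls of the receptors. Fpr2 and Ltb4r1 were then both called lower, and Ptafr stayed called higher, so that 3 of the 6 receptors were called instead of 1. In the same fit 3031 of 14089 genes tested were called higher and 3171 lower. The contrast of Ptafr and of C5ar1 with Ltb4r1 and Fpr2 in sign was the same with and without this library.

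The genes next to Ptafr did not rise with it. Ptafr lies between Dnajc8 and Eya3 on chromosome 4: Dnajc8, 10325 bases away, was called lower at a log2 fold change of −0.60 and Eya3 was at −0.38 and not called, while Ptafr rose. Next to C5ar1, Prr24 was called lower at −1.28. Next to C3ar1, Foxj2 was called higher at 0.76 in spite of the near absence of C3ar1 fragments, and Necap1 was at 0.07 and not called. Adcy4, 600 bases from Ltb4r1, was called higher at 1.69 with at most 8 fragments in a library, and Rufy4 beside Cxcr2 was not called. Vmn2r96, the next listed gene beyond Fpr2, was called higher at 1.40 with at most 28 fragments, and Ncrna00085 beyond Fpr1 was not tested.

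The genes whose log2 values ran most alike to each receptor over the 6 libraries, by Pearson r among all genes tested, are given as a description, since the 6 libraries fall into 2 groups and share their depth. They were 4933437F05Rik (0.997) and Amica1 (0.993) for Ptafr, and Cd209a (0.993) and Gm9705 (0.987) for C5ar1. For Ltb4r1 they were C430049B03Rik (0.995) and Saal1 (0.993), and for Fpr2 Abcb9 (0.988) and Ccl5 (0.985). For the receptors with the smallest fold changes they were Ssc5d (0.959) and Ralgps1 (0.949) for Fpr1, and Adamts6 (0.968) and Wdr25 (0.950) for Cxcr2.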

How the data were processed

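RNA-seq of 6 libraries (3 normal MP and 3 c-Kit+ APL) was analysed from 1 table of 16440 genes. The deposited FPKM values were computed by the authors relative to transcript length and the mapped fragments of each library. The deposited fragment values are a signal, that is estimated fragments after a rescaling by the authors with its own factor in every library: divided by the value of a single fragment (0.937, 0.952 and 0.902 for MP, 1.18, 0.867 and 1.23 for APL), 87.5% to 89.4% of the values up to 200 fragments were whole within 0.02, so no count test was run. The submitters' processing notes name CASAVA 1.8, TopHat2 2.0.6 and the build mm10, and the study's methods name STAR, HTSeq-count and DESeq2 on mm9; which of them made the table is not given in the sources used here. The table's loci follow GRCm38 (mm10) with starts counted from 0 and are given counted from 1. Whether the counting used strand is not given in the sources used here.

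Genes with a scaled value of at least 1 in at least 3 libraries (14595) were fitted on log2(scaled fragments + 1) with limma 3.58.1 in R 4.3.3 (lmFit, eBayes with a trend), without the library number as a block. Fold changes are on this scale and understate the change of low genes. Genes were called at a Benjamini-Hochberg adjusted p under 0.05 over all genes tested and a fold over 1.5. Two-sided exact permutation tests of the mean log2(scaled fragments + 1) cannot go below 0.1 with 3 against 3. Totals before scaling limit precision to counting error at low values, and 3 fragments was taken as the floor. The fit was tested on simulated data. No pair of libraries differed by as little as counting noise.

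The receptors and lists were chosen with earlier results of these data known. Named were all receptors and related receptors, the 3 called genes with the largest absolute log2 fold change and the gene of highest FPKM of each other list. Also named were the 2 genes most alike in pattern and the nearest listed genes. The full ligand list, Arrb1, Arrb2, Cebpe, Itgb2 and the single markers beside these were named after their values were seen. Of the adhesion list, 2 genes that the rule names are not reported here. Promoters were taken from RefSeq (GRCm38.p6). Alternatives changed the pseudocount, filter, scaling, unit, variance model, block, fold threshold and libraries.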

Additional observations from a re-analysis of the deposited data

How the results depend on the processing

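Ptafr was called higher in all 17 alternative fits and at a fold over 2 (adjusted p 0.00193 to 0.0404, log2 fold change 0.77 to 1.40 on leaving out single libraries). Quantile normalization called 2 receptors higher, C5ar1 at 0.81 beside Ptafr, and 3567 of 14595 genes tested. Receptors called lower numbered 2 with equal totals, 2 with voom weights, 1 with FPKM and a pseudocount of 0.1, and 0 to 2 on leaving out single libraries (2 without MP library 2). Of all genes, 4376 of 14877 were called lower with equal totals, 4264 of 14595 with voom weights and 3078 of 13201 with this FPKM setting. Fpr2 was past the adjusted p at −0.70, −0.71 and −0.60 under these settings in that order, and Ltb4r1 passed both thresholds at −0.64 and −0.64 under equal totals and voom weights; on leaving out single libraries Fpr2 lay between −0.80 and −0.37, Ltb4r1 between −0.67 and −0.41 and C5ar1 between 0.26 and 0.57. The sign of Fpr1 turned at −0.055 with equal totals and −0.058 with voom weights, and ran from −0.085 to 0.31 on leaving out single libraries, as Cxcr2 ran from −0.18 to 0.021. With FPKM and a pseudocount of 1, which changed unit, filter and genes tested (11131) together, 2151 genes were called higher instead of 3167 and 1980 lower instead of 3558, and 8 pathway genes lower instead of 13. Equal totals and voom weights moved the median of all genes by −0.13, with 61.4% and 60.9% of calls lower instead of 52.9%. Anxa1 turned to −0.045 (quantile), −0.093 (equal totals), −0.093 (voom) and −0.17 (without MP library 2), Cxcl2 to −0.095 without MP library 2 (up to 1.30 without MP library 3), Ppbp to 0.065 (quantile) and 0.0077 (without APL library 1; down to −1.36 without APL library 3), and Ncr1, a marker of NK cells, to 0.16 (quantile) and 0.071 (without APL library 2; down to −0.89 without MP library 2). The cause was not tested for any of these. Of 865 values for the 53 named genes tested beside the receptors, 844 kept direction and side of the threshold. Anxa1, Cxcl2, Ppbp and Ncr1 are among these 53, and their turns of sign are counted here too.

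The library numbers did not pair the libraries: the deviations of same-numbered libraries correlated at 0.261, −0.133 and 0.255 over 11002 genes, and not every library correlated best with its own number. With the replicate block 3164 genes were called higher and 3589 lower, 1 receptor was called higher and 0 lower, and the adjusted p of Fpr2 was 0.0461 at a fold under 1.5.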
